A study of Homo sapiens with 20 samples.

Results

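Ribosome biogenesis is the manufacture of ribosomes in the nucleolus, and 41 genes of this process were followed in estrogen-treated lobular breast cancer cells. The 41 were chosen by name, as factors for the transcription, modification, cleavage and assembly of ribosomal RNA (rRNA), and not by a threshold on their values, although earlier results of these data were known at the choice. Of these, 34 were measured, out of 11963 genes measured on the arrays. A gene counts as measured where at least 1 probe set carries its symbol alone, and where several do, its level is read from the one whose mean over all 20 arrays is highest. NOP56, DKC1 and BOP1 lay only on probe sets that carry several symbols, and NOP58, GNL3, NOB1 and EBNA1BP2 matched no probe set with their symbol alone. These 7 genes are not analysed here.

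RNA polymerase I transcribes a long rRNA precursor in the nucleolus. Small nucleolar ribonucleoproteins (snoRNPs) of the box C/D kind methylate this precursor and those of the box H/ACA kind convert uridines in it to pseudouridine. A large particle, the small-subunit processome, folds and cleaves the part that becomes the small ribosomal subunit, while a separate series of particles matures the large subunit. The transcription factor MYC is known as a driver of this programme in growing cells and binds the hexamer CACGTG, one form of the E-box, in many promoters.

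The cells were SUM44, an established human line of invasive lobular carcinoma (Asterand). Hormones had been withdrawn from all 5 groups for 3 days with charcoal-stripped serum, at 2% by the series text and 10% by the sample text. The groups were an untreated baseline at 0 h, vehicle (0.01% ethanol) for 3 h, 1 nM estradiol (E2) for 3 h, vehicle for 24 h and E2 for 24 h, with 4 arrays in each. Titles gave the groups. For the 24 h E2 group the descriptions name E2 too, but its treatment field says baseline. The model is 1 cell line. Its quadruplicates are described as biological, but not how their cultures were kept apart, so p-values measure the spread between these samples, which may be partly technical.

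Values are log2 expression on Affymetrix arrays, and a difference of 1.00 is a doubling. The correlation between arrays was 0.998 to 0.999 within a group and 0.988 to 0.998 across groups, and 0 pairs held identical values. All 14 luminal epithelial markers measured lay above 6.11, the lower quartile (25%) of gene means and the level called dim here, as did all 34 members, while 0 of 6 basal, 5 of 13 stromal and 3 of 12 immune or endothelial markers did. Mean levels of the basal list ran from 5.35 to 5.48 over the 5 groups, of the stromal list from 6.03 to 6.13 and of the immune or endothelial list from 5.43 to 5.53. The immune marker PTPRC had a mean of 3.90, and the stromal gene SPARC reached 10.6. The difference between the 3′ and 5′ ACTB control probe sets, a sign of RNA quality, was 0.466 ± 0.010 (SD, n = 4) at baseline, above every other array, 0.315 ± 0.027 with vehicle at 3 h and 0.385 ± 0.032 with E2 at 3 h. Its 3 h vehicle arrays ran from 0.291 to 0.339 and its 3 h E2 arrays from 0.343 to 0.419, without overlap. The GAPDH difference was -0.116 ± 0.0085 and -0.138 ± 0.011 in the same groups, also without overlap. The part of these differences in the results below was not tested.

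MYC, which the gene set was set beside, rose early. Its level was 7.62, 7.995, 7.95 and 7.71 on the baseline arrays, 7.34, 7.78, 7.52 and 7.64 with vehicle at 3 h and 9.92, 9.90, 10.04 and 9.81 with E2 at 3 h. At 24 h it was 7.72, 7.67, 7.71 and 7.73 with vehicle and 8.83, 8.88, 8.53 and 8.66 with E2. All E2 arrays lay above all vehicle and baseline arrays, and those of 3 h above those of 24 h. The E2 effect was 2.35 ± 0.094 (SE; adjusted p = 9.6e-14) at 3 h, a 5.09-fold rise and rank 9 among the rises of 11963 genes, and 1.02 ± 0.094 (SE; adjusted p = 2.6e-08) at 24 h, 2.02-fold and rank 126. The effect at 24 h minus that at 3 h was -1.33 ± 0.13 (SE; adjusted p = 1.4e-07) in limma, the linear model used for all tests here.

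With E2 at 3 h, 7 of the 34 measured members fell and 2 rose against vehicle, while 25 did not pass the threshold of an adjusted p under 0.05 (limma, Benjamini-Hochberg over all 11963 genes). UTP20 fell the most and DDX10 rose the most. The members called lower were 20.6% of the 34, beside 17.6% of all genes, and those called higher were 5.88%, beside 13.5% of all genes. In either direction 31.1% of all genes were called. The split was 4 higher and 7 lower when each array was centred on its median or after cyclic loess. It was 3 higher and 9 lower when the quantile normalization was repeated. The median effect of the members was -0.033 on the log2 scale and that of all genes was 0.00020, and 10 of the 34 effects were above 0, beside 50.1% of all genes. For the 25 members not called, the 95% intervals of the effect lay between -0.28 (WDR74) and 0.15 (POLR1C), which bounds a change at 3 h and does not show that there was none. In bulk RNA, fewer cells of a kind and less RNA per cell cannot be told apart, and the normalization between arrays removes a change of total RNA per cell.

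**Figure D1:**
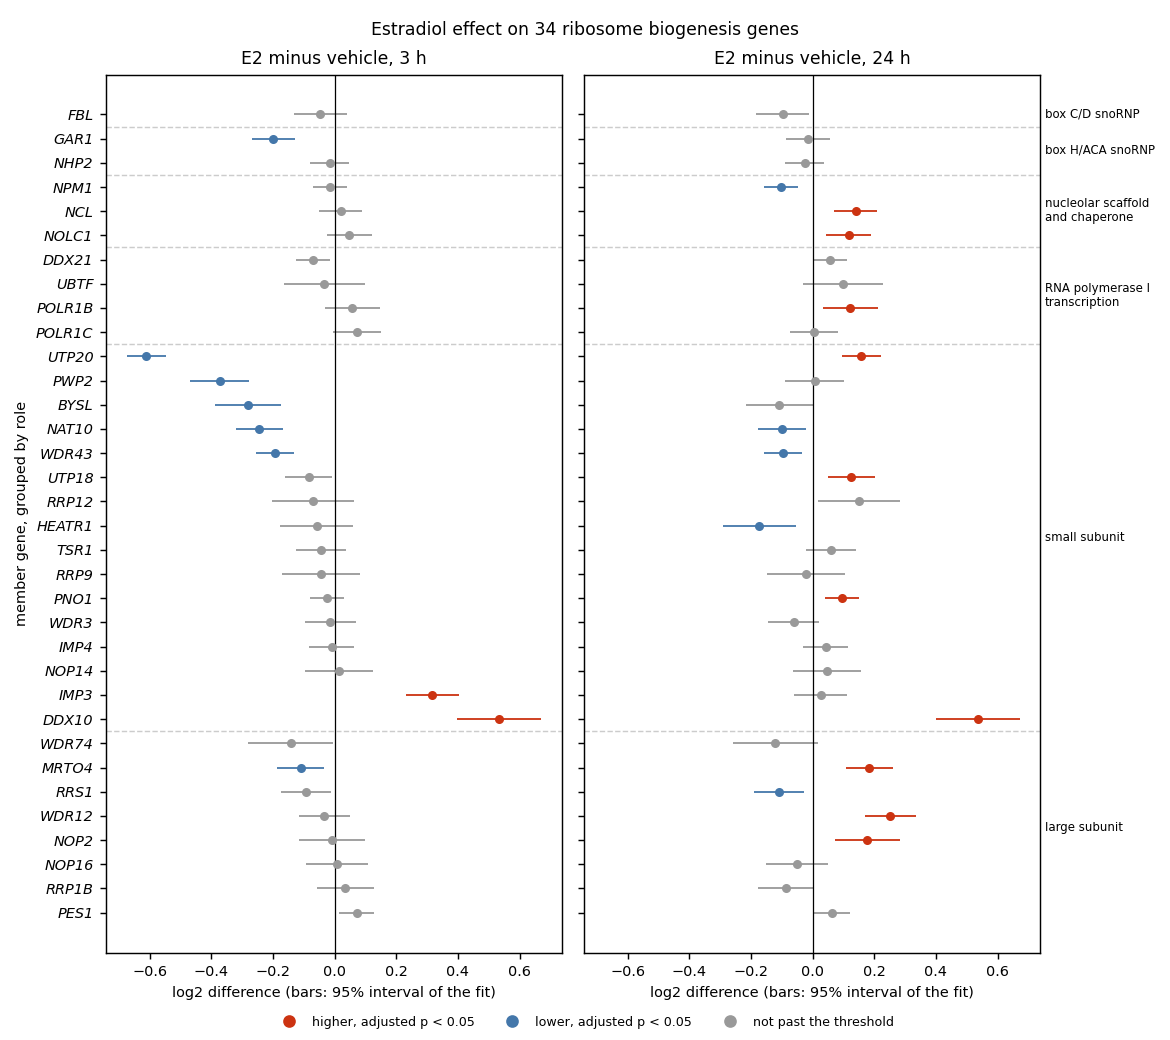
E2 effect on each of the 34 measured members at 3 h (left) and 24 h (right), as the log2 difference between 4 E2 and 4 vehicle arrays with the 95% interval of the limma fit, with genes grouped by role. Red marks genes called higher and blue genes called lower at an adjusted p under 0.05. At 3 h 5 of the 7 points called lower are small-subunit factors, which make up 16 of the 34 members. The points called lower at 3 h run from -0.11 (MRTO4) to -0.61 (UTP20), and DDX10 sits near 0.53 at both times.

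Among the 16 measured factors of the small subunit, 5 fell and 2 rose at 3 h, beside 17.6% and 13.5% of all genes. UTP20, a large scaffold protein of the small-subunit processome, read 9.72, 9.77, 9.72 and 9.79 on the vehicle arrays and 9.11, 9.18, 9.17 and 9.09 on the E2 arrays. Every E2 array lay below every vehicle array and below every baseline array, which read 9.74, 9.72, 9.68 and 9.69. The effect was -0.61 ± 0.030 (SE; adjusted p = 2.6e-12), a 1.53-fold fall. PWP2, a subunit of the UTP-B complex of the processome, is added here after its values were seen. It read 8.04, 7.85, 7.99 and 8.01 with vehicle and 7.58, 7.52, 7.66 and 7.64 with E2. The groups did not overlap, and the effect was -0.37 ± 0.046 (SE; adjusted p = 1.7e-06). BYSL (bystin), needed for late steps of small-subunit assembly, fell by 0.28 ± 0.052 (SE; adjusted p = 2e-04). NAT10, an enzyme that acetylates cytidines of the small-subunit rRNA, fell by 0.24 ± 0.037 (SE; adjusted p = 2.3e-05). WDR43, of the UTP-A complex that binds the nascent precursor, fell by 0.19 ± 0.030 (SE; adjusted p = 3e-05). For these 3 genes, too, no E2 array at 3 h overlapped the vehicle arrays.

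The opposite movement was seen for a pair of other processome genes. DDX10, a DEAD-box RNA helicase, read 8.49, 8.47, 8.54 and 8.66 with vehicle at 3 h and 9.08, 8.998, 9.20 and 9.03 with E2. All E2 arrays were higher, and the effect was 0.53 ± 0.065 (SE; adjusted p = 1.6e-06), which is 1.45-fold. IMP3, a partner of IMP4 on the U3 snoRNA in the MPP10 complex, is likewise added after its values were seen. It read 10.15, 10.08, 10.08 and 10.11 with vehicle and 10.43, 10.49, 10.44 and 10.32 with E2, without overlap, and rose by 0.32 ± 0.041 (SE; adjusted p = 3.6e-06). The other 9 small-subunit factors did not pass the threshold at 3 h. Among them IMP4, the partner of IMP3, had an effect of -0.010 ± 0.035 (SE; adjusted p = 0.88), and UTP18, in the same UTP-B complex as PWP2, one of -0.084 ± 0.037 (SE; adjusted p = 0.094). The second, lower-reading probe set of UTP18 had an effect of 0.20, of opposite sign, and was not called. For HEATR1, of the same UTP-A complex as WDR43, the effect was -0.058 ± 0.056 (SE; adjusted p = 0.51), while its second, lower-reading probe set was called lower at -0.13.

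**Figure D2:**
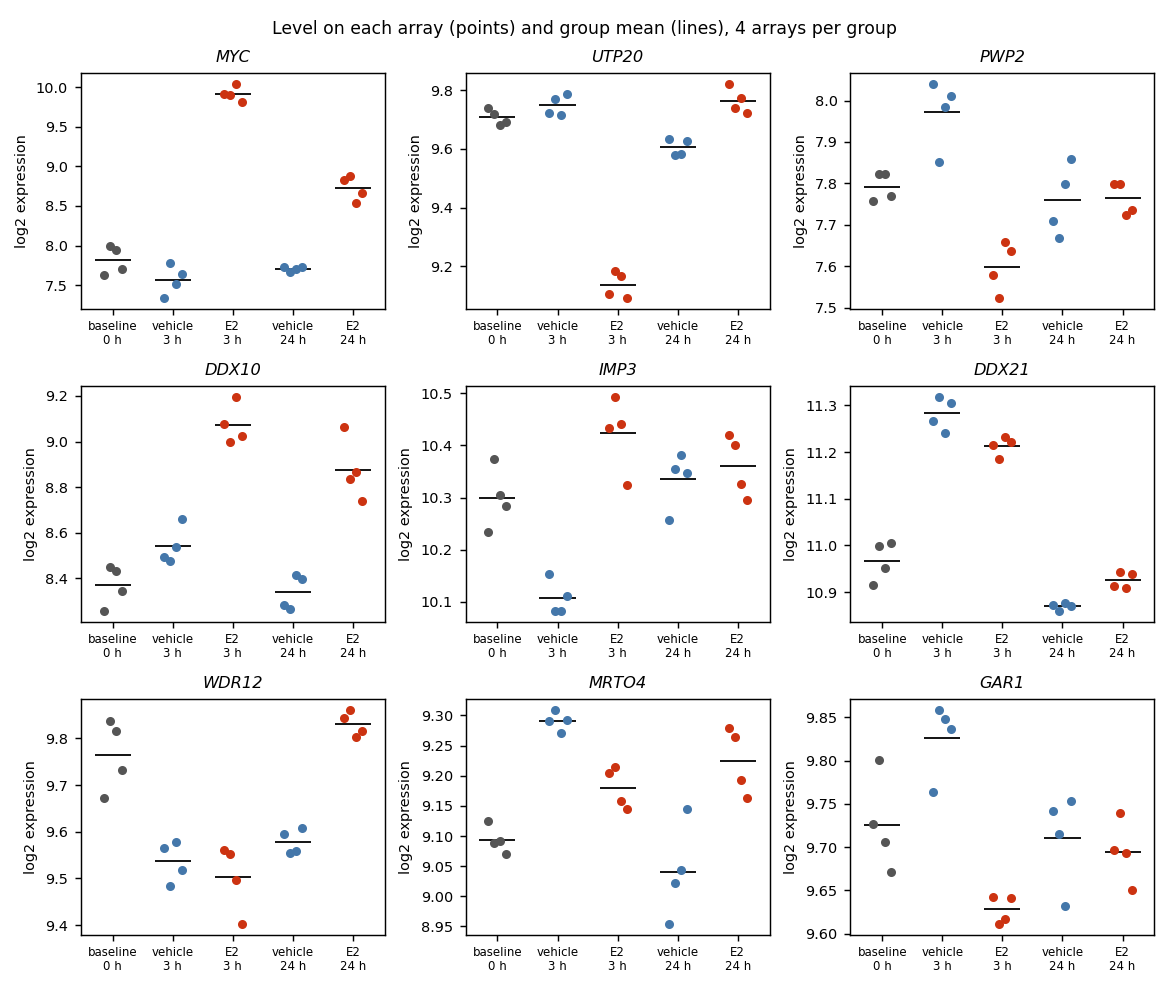
Log2 expression on each array (points) and group means (lines) for MYC and 8 members in the 5 groups of 4 arrays (grey baseline, blue vehicle, red E2); each panel has its own vertical axis. The 3 h E2 arrays of UTP20 lie between 9.09 and 9.18, below all of its other arrays, while those of DDX10 lie between 8.998 and 9.196, above its vehicle and baseline arrays.

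Of the 3 measured snoRNP proteins, only GAR1 passed the threshold at 3 h, beside 31.1% of all genes called in either direction. GAR1, a core protein of box H/ACA snoRNPs, read 9.76, 9.86, 9.85 and 9.84 with vehicle and 9.64, 9.61, 9.62 and 9.64 with E2. The E2 arrays were the lower ones without overlap, and the effect was -0.20 ± 0.034 (SE; adjusted p = 8.6e-05). NHP2, another core protein of these particles, had an effect of -0.016 ± 0.030 (SE; adjusted p = 0.76). FBL (fibrillarin), the methyltransferase of box C/D snoRNPs, read 10.21, 10.14, 10.18 and 10.18 with vehicle and 10.12, 10.18, 10.15 and 10.06 with E2. The groups overlapped, and the effect was -0.046 ± 0.041 (SE; adjusted p = 0.46).

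In the nucleolar scaffold and chaperone group, 0 of 3 members passed at 3 h in limma, and 0 had an unadjusted p under 0.05. The share of all genes called in either direction was 31.1%. NPM1 (nucleophosmin), an abundant nucleolar chaperone, read 13.62, 13.62, 13.59 and 13.57 with vehicle and 13.60, 13.61, 13.55 and 13.58 with E2, an overlapping pair of groups with an effect of -0.014 ± 0.026 (SE; adjusted p = 0.75). NCL (nucleolin), which binds rRNA and its genes, read 10.96, 10.94, 10.91 and 10.98 and 10.93, 10.99, 10.999 and 10.95, also with overlap and with an effect of 0.020 ± 0.033 (SE; adjusted p = 0.73). NOLC1, a scaffold that binds snoRNPs, had an effect of 0.047 ± 0.035 (SE; adjusted p = 0.36).

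Of the 4 members of RNA polymerase I transcription, 0 passed at 3 h in limma, and 1, DDX21, had an unadjusted p under 0.05. The share of all genes called in either direction was 31.1%. DDX21, a DEAD-box helicase that promotes rRNA transcription and processing, read 11.27, 11.32, 11.24 and 11.31 with vehicle and 11.22, 11.18, 11.23 and 11.22 with E2. The E2 arrays were all lower, yet the effect of -0.069 ± 0.026 had an adjusted p of 0.051; it was called lower with the quantile normalization repeated (adjusted p = 0.016) or with dim genes left out (0.032). POLR1B, the second-largest subunit of the polymerase, read 8.08, 8.13, 8.13 and 8.05 and 8.12, 8.22, 8.08 and 8.20, with overlap, on a probe set whose name marks possible cross-hybridisation. Its effect was 0.058 ± 0.042 (SE; adjusted p = 0.36). POLR1C, a subunit shared with RNA polymerase III, had an effect of 0.072 ± 0.037 (SE; adjusted p = 0.17), and UBTF, which binds rRNA gene promoters, one of -0.033 ± 0.062 (SE; adjusted p = 0.76).

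Among the 8 measured factors of the large subunit, 1 fell at 3 h, beside 17.6% of all genes. MRTO4, which holds the place of the stalk protein on the maturing subunit, read 9.29, 9.31, 9.27 and 9.29 with vehicle and 9.20, 9.21, 9.16 and 9.14 with E2. The groups did not overlap, and the effect was -0.11 ± 0.036 (SE; adjusted p = 0.023). This call was lost without vehicle array B (adjusted p = 0.058), E2 array C (0.06) or E2 array D (0.064). WDR12, of the PeBoW complex with PES1 and BOP1, read 9.57, 9.48, 9.58 and 9.52 and 9.56, 9.55, 9.50 and 9.40, with overlap and an effect of -0.033 ± 0.039 (SE; adjusted p = 0.61). PES1 itself had an effect of 0.071 ± 0.028 (SE; adjusted p = 0.062) and became called higher when each array was centred on its median (adjusted p = 0.021). WDR74 had an effect of -0.14 ± 0.066 (SE; adjusted p = 0.11), and its second probe set, the one with the larger variance, was called lower at -0.24.

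Promoter sequence was set beside the 3 h calls because CACGTG is the hexamer MYC binds. RefSeq windows on GRCh38.p14, from 250 bases before to 50 bases after each annotated start, matched 30 of the 34 measured members, all but NOLC1, RRP1B, RRP12 and RRS1. CACGTG, which reads the same on both strands, was present in 16 of the 30, or 53.3%. It was present in 2548 of all 35116 windows of that length, or 7.26%, and in 1144 of the 9563 genes on the arrays that have a window, or 12%. All 16 members had a copy within 50 bases of the start. The 7 members that fell at 3 h all had it, as did 9 of the 21 that were not called, while 0 of the 2 that rose did. Over all array genes with a window it was present in 14.5% of those called lower at 3 h, 13.4% of those called higher and 11% of those not called. By the 24 h calls it was present in 5 of 9 members called higher, 2 of 4 called lower and 9 of 17 not called. Over all array genes with a window, those 24 h shares were 13.4% of the higher, 13.6% of the lower and 10.6% of those not called. GAR1 had it in 1 of its 2 windows. The 30 bases around the hexamer, shown for the 7 genes that fell, in the direction of transcription with CACGTG in capitals, were as follows.
UTP20: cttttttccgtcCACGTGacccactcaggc
PWP2: tgagctgcggcaCACGTGcgacggccgtga
BYSL: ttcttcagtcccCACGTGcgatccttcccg
NAT10: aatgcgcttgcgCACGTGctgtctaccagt
WDR43: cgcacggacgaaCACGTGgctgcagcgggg
GAR1: gggccagaggggCACGTGgcgccggtgagt
MRTO4: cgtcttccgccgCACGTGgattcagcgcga
Counted from the annotated start, the first base of the hexamer was at 10 bases before it in UTP20 and 15 before it in NAT10, and at base 2 in PWP2, 4 in WDR43, 15 in MRTO4, 29 in BYSL and 32 in GAR1. The 30 bases lay at chr12:101280083-101280112 (UTP20), chr21:44107388-44107417 (PWP2), chr6:41921515-41921544 (BYSL), chr11:34105602-34105631 (NAT10), chr2:28894658-28894687 (WDR43), chr4:109815781-109815810 (GAR1) and chr1:19251807-19251836 (MRTO4), all on the plus strand. The estrogen response element, written as GGTCA and TGACC with any 3 bases between them, is also a palindrome and so was searched on both strands. It was present in 20 of all 35116 windows (0.057%) and in 0 of the 30 members, so no copy overlapped CACGTG there. A match is a description of these letters and shows neither binding nor a cause, and no match says only that the letters are not in this window.

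The 250 bases before the start are shown for UTP20 and DDX10, the members with the largest fall and the largest rise at 3 h. They lay at chr12:101279855-101280104 and chr11:108664819-108665068, both on the plus strand of GRCh38.p14. The UTP20 stretch ends just after its CACGTG, in capitals, and the DDX10 stretch holds none.
UTP20: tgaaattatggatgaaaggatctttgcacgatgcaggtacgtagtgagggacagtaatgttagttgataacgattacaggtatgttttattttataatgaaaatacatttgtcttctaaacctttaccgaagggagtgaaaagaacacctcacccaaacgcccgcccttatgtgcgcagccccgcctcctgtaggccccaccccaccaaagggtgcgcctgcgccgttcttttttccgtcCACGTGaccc
DDX10: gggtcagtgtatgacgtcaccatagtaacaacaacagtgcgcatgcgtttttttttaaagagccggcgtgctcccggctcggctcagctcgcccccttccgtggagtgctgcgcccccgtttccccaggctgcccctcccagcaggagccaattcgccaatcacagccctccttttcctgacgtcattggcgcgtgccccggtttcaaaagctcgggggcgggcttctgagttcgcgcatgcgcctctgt
Neither stretch held the estrogen response element.

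At 24 h 10 of the 34 members were higher with E2 than with vehicle, 5 were lower and 19 did not pass. The higher calls were 29.4% of the members, beside 21.5% of all genes, and the lower calls were 14.7%, beside 24.2%. In either direction 45.7% of all genes were called. The median effect was 0.034 for the members and 0.017 for all genes, and 20 of 34 effects were above 0, beside 54% of all genes. The called effects were small, with a median size of 0.13 over the 15 members called, beside 0.24 over all genes called. The split depended on the scaling between arrays: it was 14 higher and 1 lower when each array was centred on its median or after cyclic loess, and 14 and 3 when the quantile normalization was repeated. With a further requirement of at least 1.2-fold, it was 1 higher and 0 lower. The 95% intervals of the 19 members not called lay between -0.26 (WDR74) and 0.28 (RRP12).

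Of the 16 small-subunit factors, 4 rose and 3 fell at 24 h, beside 21.5% and 24.2% of all genes. DDX10 read 8.28, 8.27, 8.42 and 8.40 with vehicle and 9.06, 8.83, 8.87 and 8.74 with E2. It was higher on every E2 array, by 0.54 ± 0.065 (SE; adjusted p = 1.1e-06), and was the one member called higher at both times. UTP20 read 9.63, 9.58, 9.58 and 9.63 with vehicle and 9.82, 9.74, 9.77 and 9.72 with E2. The E2 arrays were now the higher ones, without overlap, and the effect was 0.16 ± 0.030 (SE; adjusted p = 0.00023), of opposite sign to that at 3 h. UTP18 rose by 0.13 (adjusted p = 0.0083) and PNO1, a factor of late small-subunit steps, by 0.095 (adjusted p = 0.0052). Their second probe sets read 0.14 (UTP18) and 0.059 (PNO1), in the same direction but not called (adjusted p = 0.18 and 0.32). HEATR1 fell by 0.17 (adjusted p = 0.016), a call that was not made on its second probe set (-0.037), when each array was centred on its median (adjusted p = 0.053) or without vehicle array A (adjusted p = 0.072). NAT10 and WDR43, lower at 3 h, were lower again, at -0.10 (adjusted p = 0.032) and -0.096 (adjusted p = 0.013), with overlapping arrays. The NAT10 call was kept in 9 of 20 alternative settings and was lost with median centring (-0.075, adjusted p = 0.1), with repeated quantile normalization (-0.075, 0.078), with cyclic loess (-0.055, 0.2) and without vehicle array B or C or E2 array B, C or D. The WDR43 call was kept in 15 of 20 and was lost with cyclic loess (-0.052, adjusted p = 0.15) and without vehicle array D (-0.075, 0.055). PWP2 read 7.71, 7.67, 7.80 and 7.86 with vehicle and 7.80, 7.80, 7.72 and 7.74 with E2, groups that overlapped, with an effect of 0.0060 ± 0.046 (SE; adjusted p = 0.93). IMP3 read 10.26, 10.35, 10.38 and 10.35 and 10.42, 10.40, 10.33 and 10.30, also with overlap and with an effect of 0.026 ± 0.041 (SE; adjusted p = 0.65).

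Of the 8 large-subunit factors, 3 rose and 1 fell at 24 h, beside 21.5% and 24.2% of all genes. WDR12 read 9.59, 9.55, 9.56 and 9.61 with vehicle and 9.84, 9.86, 9.80 and 9.81 with E2. All E2 arrays were higher, and the effect was 0.25 ± 0.039 (SE; adjusted p = 2.6e-05), a 1.19-fold rise. MRTO4 read 8.95, 9.02, 9.04 and 9.14 and 9.28, 9.26, 9.19 and 9.16. Every E2 array lay above every vehicle array, by 0.18 ± 0.036 (SE; adjusted p = 0.00028), where at 3 h it had been lower. NOP2, which methylates cytidines of the large-subunit rRNA, rose by 0.18 ± 0.051 (SE; adjusted p = 0.0075). RRS1, an assembly factor of the large subunit, fell by 0.11 (adjusted p = 0.027) with overlapping arrays. That call was kept in 11 of 20 alternative settings and was lost with median centring (-0.083, adjusted p = 0.077), repeated quantile normalization (-0.088, 0.076), cyclic loess (-0.062, 0.2) and without vehicle array A or C or E2 array D. PES1, the partner of WDR12, had an effect of 0.062 ± 0.028 (SE; adjusted p = 0.08).

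Members of the nucleolar scaffold group moved in both directions at 24 h. NCL read 10.86, 10.85, 10.87 and 10.83 with vehicle and 11.05, 10.91, 10.95 and 11.06 with E2. Each E2 array was above each vehicle array, and the effect was 0.14 ± 0.033 (SE; adjusted p = 0.0017). NPM1 read 13.68, 13.63, 13.60 and 13.57 and 13.53, 13.50, 13.51 and 13.53. Each E2 array was below each vehicle array, with an effect of -0.10 ± 0.026 (SE; adjusted p = 0.0029), and 2 of its 3 probe sets were called lower. The NPM1 call was lost when each array was centred on its median (adjusted p = 0.052). NOLC1 rose by 0.12 ± 0.035 (SE; adjusted p = 0.0098), and 2 of its 3 probe sets were called higher.

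Of the 4 polymerase I members, 1 was called higher at 24 h in limma and 0 lower, beside 21.5% and 24.2% of all genes. In the lower direction 0 had an unadjusted p under 0.05. POLR1B read 8.11, 8.13, 8.08 and 8.13 with vehicle and 8.11, 8.20, 8.32 and 8.30 with E2. The groups overlapped, and the effect was 0.12 ± 0.042 (SE; adjusted p = 0.024). The call was lost, with effects of 0.11, 0.093 and 0.0996, without vehicle array C (adjusted p = 0.063), E2 array C (0.095) or E2 array D (0.085). DDX21 read 10.87, 10.86, 10.88 and 10.87 and 10.91, 10.94, 10.91 and 10.94. All E2 arrays were higher, yet the effect of 0.056 ± 0.026 had an adjusted p of 0.089, and it was called higher when each array was centred on its median (adjusted p = 0.033). The snoRNP proteins gave 0 calls among 3 at 24 h in limma, beside 45.7% of all genes called in either direction. FBL alone had an unadjusted p under 0.05. FBL read 9.997, 10.03, 10.03 and 10.12 with vehicle and 10.04, 9.99, 9.87 and 9.89 with E2, with overlap and an effect of -0.097 ± 0.041 (SE; adjusted p = 0.061). GAR1 read 9.74, 9.71, 9.63 and 9.75 and 9.70, 9.74, 9.69 and 9.65, with overlap and an effect of -0.016 ± 0.034 (SE; adjusted p = 0.74).

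The E2 effects at 3 h and at 24 h were taken from different arrays, so the difference between them could be tested. It was called higher for 9 of the 34 members, beside 16.5% of all genes, and lower for 1, beside 17.8%. In either direction 34.3% of all genes were called. UTP20 had the largest change, from -0.61 to 0.16, a difference of 0.77 ± 0.043 (SE; adjusted p = 3.6e-11). PWP2 differed by 0.38 ± 0.064 (SE; adjusted p = 1e-04), MRTO4 by 0.29 ± 0.051 (SE; adjusted p = 0.00011) and WDR12 by 0.28 ± 0.056 (SE; adjusted p = 0.00043). IMP3 was the 1 member called in the other direction, with -0.29 ± 0.058 (SE; adjusted p = 0.00051). UTP18, GAR1, DDX21 and PNO1 differed by 0.21 (adjusted p = 0.0033), 0.18 (adjusted p = 0.0049), 0.13 (adjusted p = 0.012) and 0.12 (adjusted p = 0.014). NAT10 differed by 0.14 (adjusted p = 0.038), a call kept in 15 of 28 alternative settings with differences of 0.11 to 0.17, and lost without 3 h vehicle array D, 3 h E2 array A, B or D, 24 h vehicle array A or D or 24 h E2 array A or B. The UTP18 difference was -0.055 on its other probe set, with the opposite sign. For DDX10 the difference was 0.0018 ± 0.092 (SE; adjusted p = 0.99), with a 95% interval of -0.19 to 0.19, while that of MYC was -1.33. Crossing the calls of both times, 2 members (UTP20 and MRTO4) were lower at 3 h and higher at 24 h. The 3 h call of MRTO4 was kept in 15 of 20 alternative settings. Another 2 (NAT10 and WDR43, with the losses at 24 h given above) were lower at both. DDX10 alone was higher at both, and 15 were called at neither time. The same crossing is not given for all genes, so these counts stand without a share beside them.

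Many members were also higher with vehicle alone at 3 h. Against the 0 h baseline, 13 of 34 members were higher with vehicle at 3 h, beside 9.95% of all genes, and 2 were lower, beside 10.1%; 20% of all genes were called in either direction. The median difference was 0.090 for the members and -0.016 for all genes. DDX21 read 10.91, 10.998, 10.95 and 11.005 on the baseline arrays, all below its 3 h vehicle arrays given above, and rose by 0.32 ± 0.026 (SE; adjusted p = 5.2e-08). NOP2 rose by 0.26 (adjusted p = 0.00093), RRP12 by 0.24 (adjusted p = 0.0093) and NOP16, a nucleolar protein of large-subunit particles, by 0.23 (adjusted p = 0.0014). PNO1, RRS1, MRTO4, BYSL and PWP2 rose by 0.22, 0.21, 0.20, 0.19 and 0.18, and IMP4 and NCL by 0.14 and 0.12. TSR1, at 0.12 (adjusted p = 0.026), and GAR1, at 0.10 (adjusted p = 0.041), were called in 12 and 9 of 20 alternative settings. Both calls were lost without baseline array A or D or vehicle array B or C, and that of GAR1 also without baseline array C or vehicle array D. WDR12, at 9.67, 9.84, 9.82 and 9.73 on the baseline arrays, fell by 0.23 ± 0.039 (SE; adjusted p = 0.00028), and IMP3, at 10.23, 10.37, 10.30 and 10.28, fell by 0.19 ± 0.041 (SE; adjusted p = 0.002). The baseline arrays also stood apart in the ACTB difference given above, and its part in these changes was not tested.

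**Figure D3:**
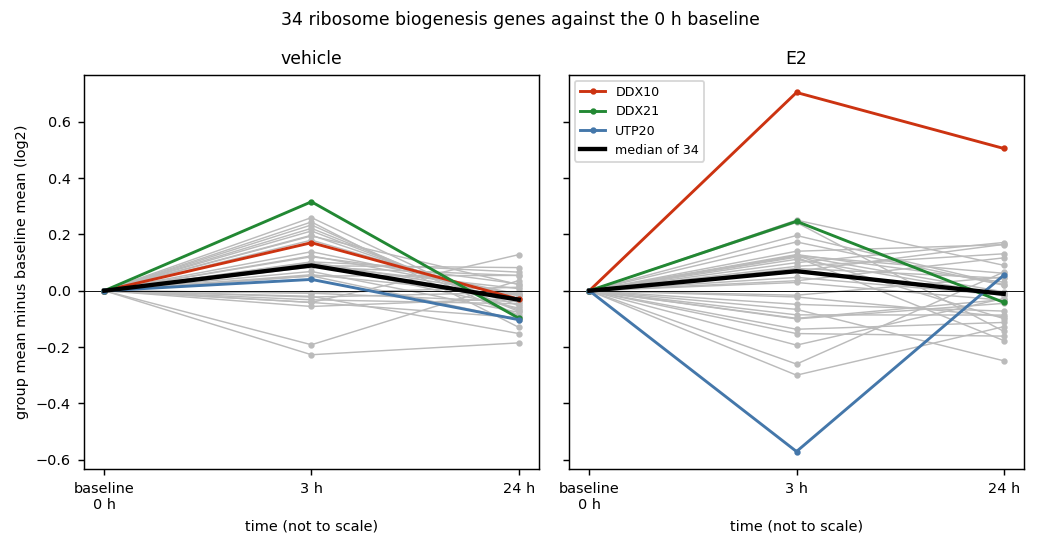
Group mean minus the 0 h baseline mean, in log2 units, for each of the 34 members (grey lines) with vehicle (left) and E2 (right) at 3 h and 24 h; the thick black line is the median of the 34 and the time axis is not to scale. The median stands at 0.090 with vehicle and 0.069 with E2 at 3 h, and at -0.032 and -0.011 at 24 h, and with E2 at 3 h UTP20 stands at -0.57 and DDX10 at 0.70.

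With vehicle the members' levels were lower again at 24 h. Against vehicle at 3 h, 19 members were lower at 24 h, beside 12.8% of all genes, and 2 were higher, beside 16.1%, with 28.9% called in either direction. DDX21 fell by 0.41, RRP12 by 0.37, NOP2 by 0.35, NOP16 by 0.33 and PNO1 by 0.29, while IMP3 rose by 0.23 and HEATR1 by 0.17. Against baseline, 5 members were lower with vehicle at 24 h (WDR12, FBL, UTP20, DDX21 and PES1), beside 4.37% of all genes, and 0 were higher in limma, beside 7.55%, with 1 at an unadjusted p under 0.05. In either direction 11.9% of all genes were called. The differences of the 5 ran from -0.096 to -0.19. The count fell to 1 without baseline array B and to 3 without baseline array A or vehicle array B. Over all genes, 63.3% of the calls in this comparison were higher, against 53.1% when each array was centred on its median and 53% when the quantile normalization was repeated.

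The 3 h vehicle arrays enter both the E2 comparison and the comparison with baseline, so the members' values are given side by side. UTP20 stood at 0.040 with vehicle and -0.57 with E2 relative to baseline. NAT10 stood at -0.056 and -0.30, PWP2 at 0.18 and -0.19, and GAR1 at 0.10 and -0.098. BYSL and MRTO4, called lower than vehicle, were at -0.086 and 0.087 with E2, neither called against baseline, and at 0.19 and 0.20 with vehicle. DDX10 stood at 0.17 and 0.70, and IMP3 at -0.19 and 0.12. With E2 at 3 h, 13 members were higher than baseline, beside 15.7% of all genes, and 6 were lower, beside 19.8% (35.5% in either direction). DDX21, NOP2, NOP16 and PNO1 were among the 13, at 0.25, 0.25, 0.24 and 0.20, and the 6 were UTP20, NAT10, WDR12, PWP2, WDR43 and GAR1.

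With E2 at 24 h, 6 members were higher than baseline, beside 19.2% of all genes, and 7 were lower, beside 22.4% (41.6% in either direction); after cyclic loess the split was 9 and 6. DDX10 had the largest difference at 0.51 (adjusted p = 2.5e-06), followed by NOLC1, UBTF, NCL, MRTO4 and POLR1B at 0.17 to 0.12. FBL, at 10.16, 10.26, 10.21 and 10.14 on the baseline arrays, stood furthest below baseline at -0.25 (adjusted p = 4.7e-05), and RRS1, NOP16, NAT10, WDR43, POLR1C and NPM1 were lower by 0.18 to 0.092. Between the E2 groups, 4 members were higher at 24 h than at 3 h, beside 22.3% of all genes, and 11 were lower, beside 21.5% (43.8% in either direction). The 4 were UTP20 at 0.63, WDR12 at 0.33, and PWP2 and NAT10, both at 0.17. NOP16, RRS1 and DDX21 fell by 0.39, 0.30 and 0.29.

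Further genes of the same machinery are given by their counts. Of 46 measured large-subunit factors outside the 41, 16 were lower and 4 higher with E2 at 3 h, against 17.6% and 13.5% of all genes, and their median effect was -0.047. NVL, an ATPase that remodels large-subunit precursors, read 10.56, 10.71, 10.62 and 10.73 with vehicle and 9.55, 9.53, 9.54 and 9.41 with E2. No array overlapped, and the effect was -1.15 ± 0.045 (SE; adjusted p = 7.1e-14), a 2.21-fold fall. MAK16 fell by 0.41 ± 0.041 (SE; adjusted p = 1e-07) and RRP15 by 0.27 ± 0.034 (SE; adjusted p = 2.2e-06). At 24 h 11 of the 46 were higher and 8 lower, beside 21.5% and 24.2% of all genes, with a median of 0.019. TMA16 rose by 0.96 (adjusted p = 2.8e-10), RSL24D1 fell by 0.42 (adjusted p = 3e-09) and NVL fell by 0.51 (adjusted p = 1.2e-08).

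Of 31 further small-subunit factors, 3 were higher and 7 lower at 3 h, beside the 13.5% and 17.6% of all genes, and their median effect was 0.021. Among them were RCL1 at 0.40 (adjusted p = 1.6e-06), RIOK2 at -0.26 (adjusted p = 2.7e-07) and MPHOSPH10, which joins IMP3 and IMP4 in 1 complex, at -0.26 (adjusted p = 4.6e-06). At 24 h 5 were higher and 5 lower, beside 21.5% and 24.2% of all genes, with UTP25 at -0.30 (adjusted p = 3.7e-06) and UTP11 at 0.19 (adjusted p = 0.00025). The name of the UTP25 probe set marks possible cross-hybridisation. Of 12 further subunits and factors of RNA polymerase I, 4 were higher and 4 lower at 3 h, beside the same 13.5% and 17.6% of all genes. POLR1E, a polymerase subunit, read 8.05, 7.98, 8.01 and 8.07 with vehicle and 8.51, 8.60, 8.55 and 8.53 with E2. All E2 arrays were higher, by 0.52 ± 0.033 (SE; adjusted p = 1.3e-10). RRN3, the factor that brings the polymerase to its promoter, rose by 0.19 ± 0.039 (SE; adjusted p = 6e-04), while TAF1A, of the promoter selectivity complex, fell by 0.43 ± 0.068 (SE; adjusted p = 3.6e-05). At 24 h 2 of the 12 were higher and 4 lower, beside the same 21.5% and 24.2% of all genes. POLR1G was at 0.34 (adjusted p = 0.00016) and TAF1C at -0.17 (adjusted p = 0.0073). Of 9 partners and assembly factors of snoRNPs, 1 was higher and 3 lower at 3 h and 2 were higher and 4 lower at 24 h. The shares of all genes to set beside these are those just given for each time. SHQ1, an assembly chaperone of the box H/ACA protein DKC1, rose by 0.17 (adjusted p = 0.00078) and 0.39 (adjusted p = 1.4e-08), and ZNHIT3, an assembly factor of box C/D snoRNPs, was at -0.34 (adjusted p = 2.1e-08) at 24 h.

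The ribosomal proteins, the products that these factors assemble with rRNA, were not called at 3 h. In limma 0 of 31 large-subunit and 0 of 21 small-subunit ribosomal protein genes passed in either direction, and 0 had an unadjusted p under 0.05. At 24 h 19 of the 31 and 10 of the 21 were lower and 0 were higher, against 24.2% and 21.5% of all genes, with medians of -0.072 and -0.059. RPL18 was at -0.26 (adjusted p = 8.4e-08), RPL14 at -0.23 (adjusted p = 3.4e-07) and RPS29 at -0.10 (adjusted p = 0.00032). The direction was the same under each scaling, but the counts were 10 and 3 when each array was centred on its median, 14 and 3 when the quantile normalization was repeated, and 0 and 0 with at least 1.2-fold required. Ribosomal protein genes have many near-identical processed copies in the genome, so their probe sets may not be specific to 1 gene each.

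**Figure D4:**
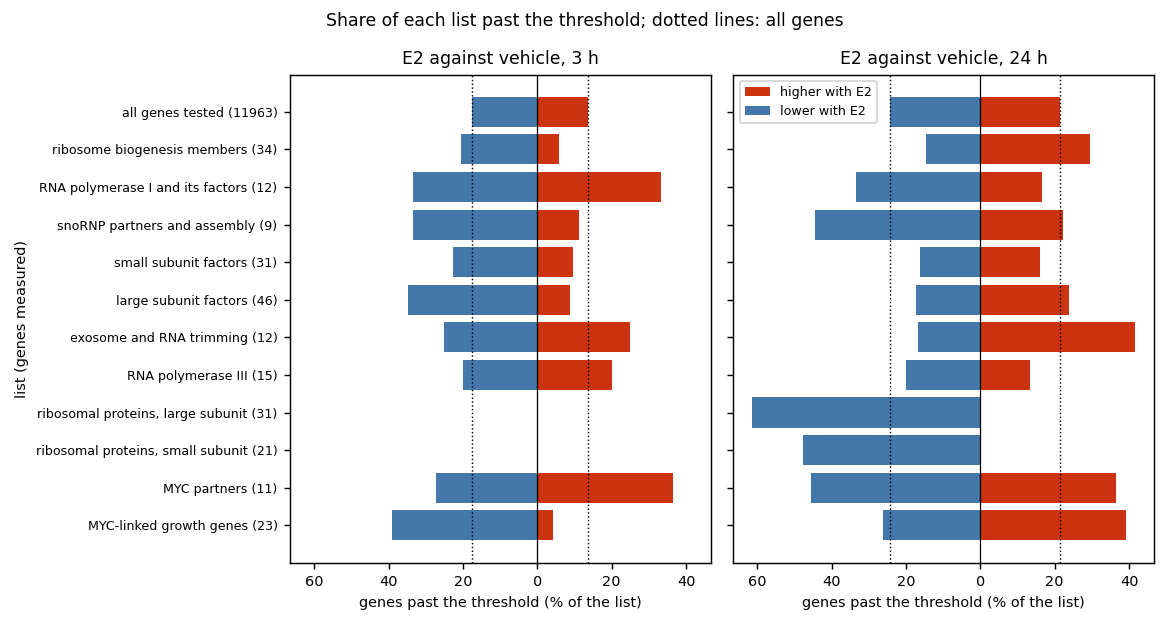
Percent of the measured genes of each list called higher (red, right) or lower (blue, left) with E2 at 3 h and 24 h at an adjusted p under 0.05; dotted lines mark the shares over all 11963 genes, 13.5% and 17.6% at 3 h and 21.5% and 24.2% at 24 h. The 34 members stand at 5.88% higher and 20.6% lower at 3 h and at 29.4% higher and 14.7% lower at 24 h, and both ribosomal protein lists show calls in 1 direction at 24 h.

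Among 11 measured genes of the MYC family and its partners, MYC included, 4 were higher and 3 lower at 3 h, and 4 were higher and 5 lower at 24 h. The shares over all genes were 13.5% higher and 17.6% lower at 3 h, and 21.5% and 24.2% at 24 h. MXD1, which competes with MYC for the partner MAX, rose by 1.30 ± 0.081 (SE; adjusted p = 9.9e-11) at 3 h. MYCN, a MYC paralogue, fell by 0.74 ± 0.043 (SE; adjusted p = 3.9e-11) at 3 h and by 1.03 ± 0.043 (SE; adjusted p = 2.1e-13) at 24 h. MXI1, another competitor for MAX, fell by 0.56 ± 0.039 (SE; adjusted p = 4.8e-10) at 24 h.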

How the data were processed

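Expression was measured on 20 Affymetrix human gene expression arrays, 4 in each of 5 groups. The submitters' processing notes name RMA and affy for the log2 values that the authors deposited; versions and settings are not given in the sources used here. RMA equalises the distribution of the arrays, so a change in total RNA per cell cannot be seen. Precision is limited by how many arrays there are.

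Of 22277 probe sets, 62 are controls, and GEO's platform annotation gave 1 symbol to 19064 of the others, several to 1043 and none to 2108. Those with 1 symbol covered 11963 genes, and 19052 matched RefSeq by Entrez number with 0 symbols changed. For 12 of the 34 measured members more than 1 such probe set exists; the brightest was used.

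All 20 arrays entered 1 fit of group means in limma 3.58.1 (R 4.3.3), with empirical Bayes moderation and p-values adjusted by the Benjamini-Hochberg method over all 11963 genes. Adjusted p-values in the text are from this fit unless another setting is named. Called means an adjusted p under 0.05, and fold changes come from the same fit. The method was tested on simulated data in which far fewer genes changed than are called here. Recovery of calls was required there only for effects larger than most of those called among the members. The test therefore does not cover the smaller effects. Array values are given for the members with the smallest p in each role group and for MYC; PWP2 and IMP3 were added, and other members named for their calls, after their values were seen. The members and all gene lists were chosen with earlier results of these data known.

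Alternatives were 3 other scalings, 2 other rules for probe sets, array weights, a filter on dim genes, a block for the replicate letter, other arrays in the fit, another variance prior, stricter thresholds and leaving out each array. Cyclic loess was chosen after seeing the data. No genome was used beyond RefSeq promoter windows.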

Additional observations from a re-analysis of the deposited data

Results flagged for a closer look

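A few single arrays stood apart from the other 3 of their group by Dixon's test at its 95% critical value. NOLC1 read 9.769 on vehicle array A at 24 h, where the others read 9.792 to 9.795. NOP2 read 7.8 on E2 array D at 3 h, below 7.971 to 7.987 on the others, and NOP16 read 10.36 on vehicle array D at 3 h, above 10.17 to 10.19. BYSL read 8.037 on vehicle array A at 24 h, below 8.225 to 8.252, and 7.94 on E2 array C at 24 h, below 8.103 to 8.135. These were 5 of 175 groups over 35 genes (MYC and the 34 members), and chance alone picks out about 1 group in 20.

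The E2 effect at 24 h minus that at 3 h passed an adjusted p under 0.05 in limma for MYC and 10 members. It was -1.333 for MYC and -0.2904 for IMP3. It was 0.7689 for UTP20, 0.3786 for PWP2, 0.2944 for MRTO4, 0.2844 for WDR12, 0.2098 for UTP18, 0.1829 for GAR1, 0.1437 for NAT10, 0.1254 for DDX21 and 0.1204 for PNO1. All are on the log2 scale, and each rests on the 8 arrays of either time.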

How the results depend on the processing

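Of 512 values (counts of calls and the MYC effects) recomputed under 12 alternatives and without each of 20 arrays, 462 were kept. A count was kept where it stayed within 1.5 times, and a MYC effect where its sign and call stayed the same. The MYC effects were kept throughout. They were 2.272 to 2.419 at 3 h, 0.9649 to 1.08 at 24 h and -1.403 to -1.256 for the difference when single arrays were left out. The causes of the changes below were not tested, apart from the stricter thresholds, which call fewer genes by construction.

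With at least 1.2-fold required, all genes called were 1838 at 3 h, 2470 at 24 h and 2537 for the difference. Members called were then 3 lower with E2 at 3 h, 1 higher and 0 lower at 24 h, and 4 higher in the difference. For vehicle against baseline they were 1 higher and 0 lower at 3 h and 0 lower at 24 h, for vehicle between the times 0 higher and 6 lower, for E2 against baseline 1 higher and 2 lower at 3 h and 1 higher and 0 lower at 24 h, and for E2 between the times 2 higher and 3 lower. At an adjusted p under 0.01, 1 member was lower with E2 at 24 h, 7 were higher with E2 at 3 h than at baseline, 6 lower with E2 at 24 h than at 3 h, 1 higher with vehicle at 24 h than at 3 h and 1 lower with vehicle at 24 h than at baseline.

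With median centring, and also with cyclic loess, 4 members were higher with E2 at 3 h, 1 was lower at 24 h and 1 was higher with vehicle at 24 h than at 3 h. The difference had 2 members lower with cyclic loess, without dim genes and with a trended robust prior, and 14 higher with quantile normalization repeated, where 3 were lower at 24 h. Fitting only the compared arrays gave 2 lower with E2 at 24 h, 7 lower with E2 at 24 h than at 3 h, 2 lower with vehicle at 24 h than at baseline and 1 higher with vehicle at 24 h than at 3 h, as did the mean of probe sets for the last. The UTP18 difference turned to -0.055 on the probe set with the largest variance.

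Leaving out single arrays, members lower with E2 at 24 h were 3 to 6, with 3 without vehicle array C or E2 array D. Members lower in the difference were 1 to 2, with 2 without 3 h E2 array D or 24 h vehicle array D. Members lower with vehicle at 24 h than at baseline were 1 to 5, with 1 without baseline array B and 3 without baseline array A or vehicle array B. Members higher with vehicle at 24 h than at 3 h were 1 to 2, with 1 without vehicle array A or B of either time.

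Deviations from the group mean correlated above 0.1 in 6 of 40 pairs of same-lettered arrays (-0.245 to 0.37). The largest values were 0.37 (letter D) and 0.251 (letter A), both between 3 h E2 and 24 h E2. Pairs of unlike letters are not given for comparison. The labels do not state what the letters mark, so they were not taken to pair cultures. With the letter as a replicate block, calls were 2 higher and 8 lower at 3 h, 11 and 5 at 24 h and 9 and 1 for the difference, with 3665, 5479 and 4078 of all genes, and no count moved by over 1.5 times.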

Other observations

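Genes next to ribosome assembly also moved in both directions. Among 12 measured genes of the RNA exosome and RNA trimming, 3 were higher and 3 lower with E2 at 3 h, and 5 were higher and 2 lower at 24 h. Of all genes, 13.5% were called higher and 17.6% lower at 3 h, and 21.5% and 24.2% at 24 h. EXOSC7, a subunit of the exosome ring, fell by 0.20 at 3 h (adjusted p = 2.8e-05) and by 0.51 at 24 h (adjusted p = 3.1e-11). EXOSC9, in the same ring, rose by 0.55 at 24 h (adjusted p = 7.1e-10), and EXOSC2 by 0.24 (adjusted p = 0.00019). Among 15 genes of RNA polymerase III, which makes transfer RNA, 3 were higher and 3 lower at 3 h and 2 higher and 3 lower at 24 h. POLR3G, a subunit of it, fell by 0.52 at 3 h (adjusted p = 3.5e-05) and had an effect of 0.17 at 24 h (adjusted p = 0.11).

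Among 23 MYC-linked growth genes outside ribosome assembly, 1 was higher and 9 were lower at 3 h, and 9 were higher and 6 lower at 24 h, beside the same shares of all genes (13.5% and 17.6% at 3 h, 21.5% and 24.2% at 24 h). CAD, the enzyme that starts pyrimidine synthesis, fell by 0.41 at 3 h (adjusted p = 7e-09). ODC1, the first enzyme of polyamine synthesis, fell by 0.49 at 3 h (adjusted p = 1e-07) and rose by 0.47 at 24 h (adjusted p = 1.4e-07). HSPE1, a mitochondrial chaperone, fell by 0.22 and 0.34 at 3 h and 24 h (adjusted p = 7.1e-06 and 1.2e-08). LDHA, a lactate dehydrogenase, fell by 0.25 at 24 h (adjusted p = 1.6e-07).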
